A study of Homo sapiens with 8 samples.

Results

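The catalytically active fusion MBD-TET1-CDwt was compared with its inactive counterpart MBD-TET1-CDmut in HEK293T cells, a human embryonic kidney line. MBD-TET1-CDwt joins the methyl-CpG-binding domain of MBD2 to the catalytic domain of TET1, and MBD-TET1-CDmut is the same protein with its catalytic function abolished by mutation. The members of the comparison were chosen by their labels alone: 2 arrays of MBD-TET1-CDwt, from the stable clones #3 and #10, and 2 arrays of MBD-TET1-CDmut, from the stable clones #9 and #10, which made 4 of the 8 arrays measured. The other 4 arrays came from 2 clones that carried the empty vector and 2 clones, #2 and #5, that expressed TET1-CDwt, the active catalytic domain without a targeting domain. All 8 lines were selected with blasticidin after transfection, so the drug and the vector backbone were shared by every group. Each line was 1 clone, and the 2 clones of a construct were the only replicates. A p-value therefore rests on the spread between clones and between arrays together, pooled over the 4 groups. The clone number 10 in both fusions is a name and does not join the clones. The 4 arrays of the fusions shared slide 2, and the other 4 shared slide 1.

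TET enzymes oxidise the methyl group of 5-methylcytosine in DNA, and the oxidised bases are lost through repair or through replication. Cytosine methylation at the promoter is known to hold many germ line genes, and genes of the cancer-testis class, silent in somatic cells. The methyl-CpG-binding domain of MBD2 binds methylated CpG, and its fusion to an active catalytic domain is meant to bring the enzyme to methylated promoters. Comparing the active with the inactive fusion asks which transcripts differ between constructs that share the targeting domain and differ in catalytic activity. The fusions were carried by separate clones, so the lines differ in clone as well as in catalytic activity. The part of clone in the differences was not tested.

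RNA was labelled with Cy3 and hybridised to one-colour arrays, and each probe is given here as the log2 of its background-corrected signal minus the 75th percentile of its array, so that 0 is a bright probe and -5 is a dim one. Of the 34071 probes measured on every array, for 27739 genes, 63.2% to 64.6% per array of slide 2 exceeded the scanner's background test. A probe was called dim where it was not well above background by the scanner's flag. Of the 4 fusion arrays, the lowest signals of probes that were well above background lay between -5.56 and -5.51. The transgenes were not resolved: the pair of TET1 probes differed by -0.69 and 0.06 (log2) between the active and the inactive fusion, with adjusted p of 0.554 and 0.962 (limma), and the probe for B2M, a common reference gene, by -0.09. The 10 HEK293T markers held 1 gene that was 2-fold higher and 1 that was 2-fold lower with the active fusion. None of the 7 LNCaP, 5 blood, 5 fibroblast or 4 liver markers reached 2-fold. Of these, 4, 3, 3 and 3 had at least 1 probe that was dim on all 4 fusion arrays. A probe above background on all 4 was found for 4, 3, 1 and 2 of them. Spread between clones was wider for the active fusion than for the inactive one, with a root mean square SD over tested probes of 0.50 against 0.25.

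With limma on all 8 arrays, 20 of 22530 probes tested (0.0888%) were higher with the active fusion at an adjusted p under 0.05, and 3 (0.0133%) were lower. At an unadjusted p under 0.05 the counts were close to even, 739 higher (3.28%) and 802 lower (3.56%). The 20 probes stood for 20 genes, and 19 of them were dim on both arrays of the inactive fusion, so their fold is a lower bound, written as at least N-fold where the bound was used, and taken against the dimmest detected signal of the array. Of the 20, 17 were dim on all 6 other arrays, so they passed the filter on dim probes only through the active clones, and the filter favoured such probes. Since the spread was pooled over the 4 groups, their SE and adjusted p rest largely on arrays at background. For SOX17 the SD was 1.13 between the active clones and 0.014 between the inactive ones. For GTSF1 it was 0.12 and 0.24. Without the filter 9 of the 20 and 1 of the 3 kept the call. For all 20 genes, both arrays of the active fusion lay above the other 6 arrays. Over all tested probes this held for 1116 (4.95%), and the reverse for 1249 (5.54%). The choice of probes called higher, most of them dim on the other 6 arrays, favours this result for the 20. Both active arrays lay above both inactive ones in 18.1% of the tested probes and below them in 17.9%. With the untargeted domain, the same 20 probes ranged from 0.97 lower to 1.28 higher (log2) than with the empty vector. Among the 20431 probes above background on all 4 fusion arrays, limma called 0 in either direction (before adjustment, 593 and 688 had p under 0.05), and with normexp background correction it called 2 higher and 0 lower. The counts also moved with single clones, to 68 higher and 7 lower without active clone #3, 42 and 101 without active clone #10, 3 and 0 without either inactive clone, and 10 and 0 without either empty vector clone.

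**Figure D1:**
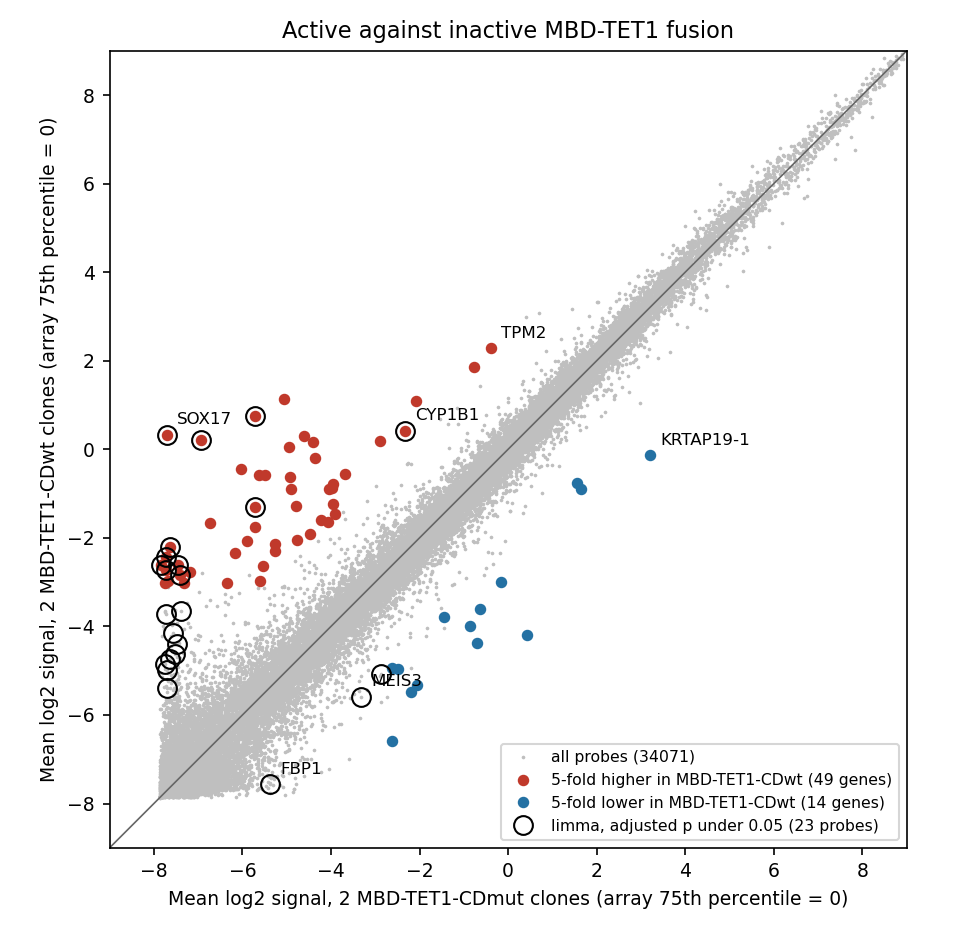
Mean log2 signal of the 2 MBD-TET1-CDmut clones (x axis) against the mean of the 2 MBD-TET1-CDwt clones (y axis), with the array's 75th percentile at 0 and 1 point per probe. The 20 probes called higher lie above the diagonal, most of them at the dim end of the x axis, and the 3 called lower lie below it.

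Several called genes are known from the germ line, a grouping made after the calls were seen, in which SOHLH2 and GPAT2 belong to the germ cell and piRNA list and the others do not. SOHLH2, a basic helix-loop-helix factor of spermatogonia and oocytes, gave -2.95 in #3 and -2.29 in #10 of the active fusion, against -7.86 in #9 and -7.83 in #10 of the inactive one. The difference was 5.22 (SE 0.24, adjusted p = 0.0012 by limma), or at least 7.52-fold, and the 4 remaining arrays lay between -8.32 and -8.12. GTSF1, a zinc finger cofactor of PIWI proteins, read -2.52 and -2.69 with the active fusion against -7.29 and -7.62, a difference of 4.85 (SE 0.19, adjusted p = 0.00112 by limma) and at least 7.58-fold. GPAT2, a mitochondrial protein of the acyltransferase family that is needed to make piRNA, read -3.11 and -2.58 against -7.43 and -7.39, a difference of 4.56 (SE 0.22, adjusted p = 0.0012 by limma) and at least 6.43-fold. In each of these 3 genes the groups were separated by a gap far wider than either pair of clones, and all 6 other arrays were dim. The other probes did not all show it. Another SOHLH2 probe and another GPAT2 probe were dim on all 8 arrays, and a bright GPAT2 probe read -1.26 and -0.92 against -1.81 and -1.68, a difference of 0.65 (adjusted p = 0.628 by limma).

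The germ line genes DMRTB1, MEIOC and PRSS21 rose too, with a wider spread between the active clones. DMRTB1, a DM-domain factor of spermatogonia, read -2.96 in #3 and -1.43 in #10 against -7.60 and -7.65, at least 10.1-fold higher (difference 5.43, SE 0.44, adjusted p = 0.013 by limma). MEIOC, required for meiotic prophase, read -4.47 and -2.98 against -7.74 and -7.71, at least 3.49-fold higher (adjusted p = 0.0399 by limma). Another MEIOC probe, above background only in active clone #10, read -7.63 and -4.96 against -7.34 and -7.69, so its groups overlapped. PRSS21, the testis serine protease testisin, read -2.03 and -0.60 against -5.74 and -5.71, at least 18.6-fold higher (adjusted p = 0.0215 by limma). Clone #10 was the higher of the active clones in all 3, and the groups did not overlap. OOEP, a protein of the oocyte's subcortical complex, was barely above background with the active fusion, at -5.39 and -5.40, and its bound was only 1.10-fold.

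Among cancer-testis antigens, GAGE7 and MAGEA9 passed the test. GAGE7 read 0.87 in #3 and -0.43 in #10 of the active fusion and -6.92 and -6.93 in the inactive one, at least 53.8-fold higher (difference 7.14, SE 0.53, adjusted p = 0.00788 by limma). MAGEA9 was at least 2.60-fold higher. Both belong to X-linked families of near-identical copies, and a probe may bind several of them, so each value is uncertain as to the copy.

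The genes that the study followed by other assays did not all pass. MAGEA8 read -3.59 in #3 and -2.83 in #10 against -7.67 and -6.29, at least 4.99-fold higher at an adjusted p of 0.0696 (limma). MAGEA2B read -2.26 and 1.11 against -5.65 and -5.61, at least 31.1-fold higher (adjusted p = 0.249 by limma), and its other probe was above background in active clone #10 alone. MAL read -5.34 and -5.20 against -6.54 and -7.60, with 1 active array dim, and TRH -7.84 and -5.02 against -7.84 and -7.83, again with 1 active array dim. MT1M was dim on all 4 fusion arrays. MAL, TRH and MT1M did not enter the test.

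Developmental regulators and structural genes followed. SOX17, the endoderm transcription factor, differed by 8.04 (SE 0.53, adjusted p = 0.00473 by limma), or at least 58.0-fold. H1-1, a linker histone, read -2.20 and -2.64 against -7.67 and -7.77, at least 8.61-fold higher. NEFH, the heavy neurofilament subunit, had a called probe that read -4.46 and -4.79 against -7.5 and -7.57. A second NEFH probe read -0.35 and -0.55 with the active fusion, and -7.66 in #9 but -4.40 in #10 of the inactive fusion, which left it at an adjusted p of 0.213 by limma. MEST, an imprinted gene, read -4.85 and -5.13 against -7.70 and -7.70, at least 1.45-fold higher.

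Genes of metabolism, transport and small-molecule binding completed the named risers. HPDL, a dioxygenase-like protein of mitochondria, read -0.22 in #3 and 1.72 in #10 against -5.82 and -5.62 in the inactive clones, at least 77.7-fold higher (difference 6.47, SE 0.57, adjusted p = 0.015 by limma). CRABP1, which binds retinoic acid in the cytosol, read -4.20 and -3.10 against -7.37 and -7.42, at least 3.69-fold higher, but a second CRABP1 probe, above background on all 8 arrays, differed by only 0.28 (adjusted p = 0.823 by limma). CYP1B1, a cytochrome P450 enzyme, read 0.30 and 0.53 against -2.31 and -2.37. It was the only one of the 20 probes that was above background on the inactive arrays, and its 6.76-fold difference (2.76, SE 0.24, adjusted p = 0.015 by limma) is therefore a measured ratio rather than a bound. Its second probe read -2.57 and -1.59 against -4.16 and -4.45, a difference of 2.22 (adjusted p = 0.123 by limma). SLC22A24, an organic anion transporter, and OBP2A, an odorant-binding protein, were at least 1.73-fold and at least 2.18-fold higher, and a second SLC22A24 probe was dim on all 8 arrays. The remaining pair of called probes carried accessions, NM_001097592 and NM_004909, that were not matched to a gene name.

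Genes lower with the active fusion were fewer. SLC44A5, a choline transporter-like protein, read -5.21 in #3 and -4.96 in #10 against -2.94 in #9 and -2.78 in #10 of the inactive fusion, 4.66-fold lower (difference -2.22, SE 0.23, adjusted p = 0.0324 by limma). MEIS3, a TALE homeobox factor, read -5.73 and -5.45 against -3.21 and -3.42, at least 4.57-fold lower (difference -2.27, SE 0.24, adjusted p = 0.0337 by limma). In both genes 1 active array was dim, and in both the active arrays were the lowest of all 8. FBP1, the gluconeogenic enzyme fructose-1,6-bisphosphatase, read -7.48 and -7.63 against -5.36 and -5.39 (difference -2.18, SE 0.18, adjusted p = 0.013 by limma). Its probe was dim on all 4 fusion arrays, so no fold is given, and it entered the test through the slide 1 arrays, which read between -5.51 and -5.22.

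**Figure D2:**
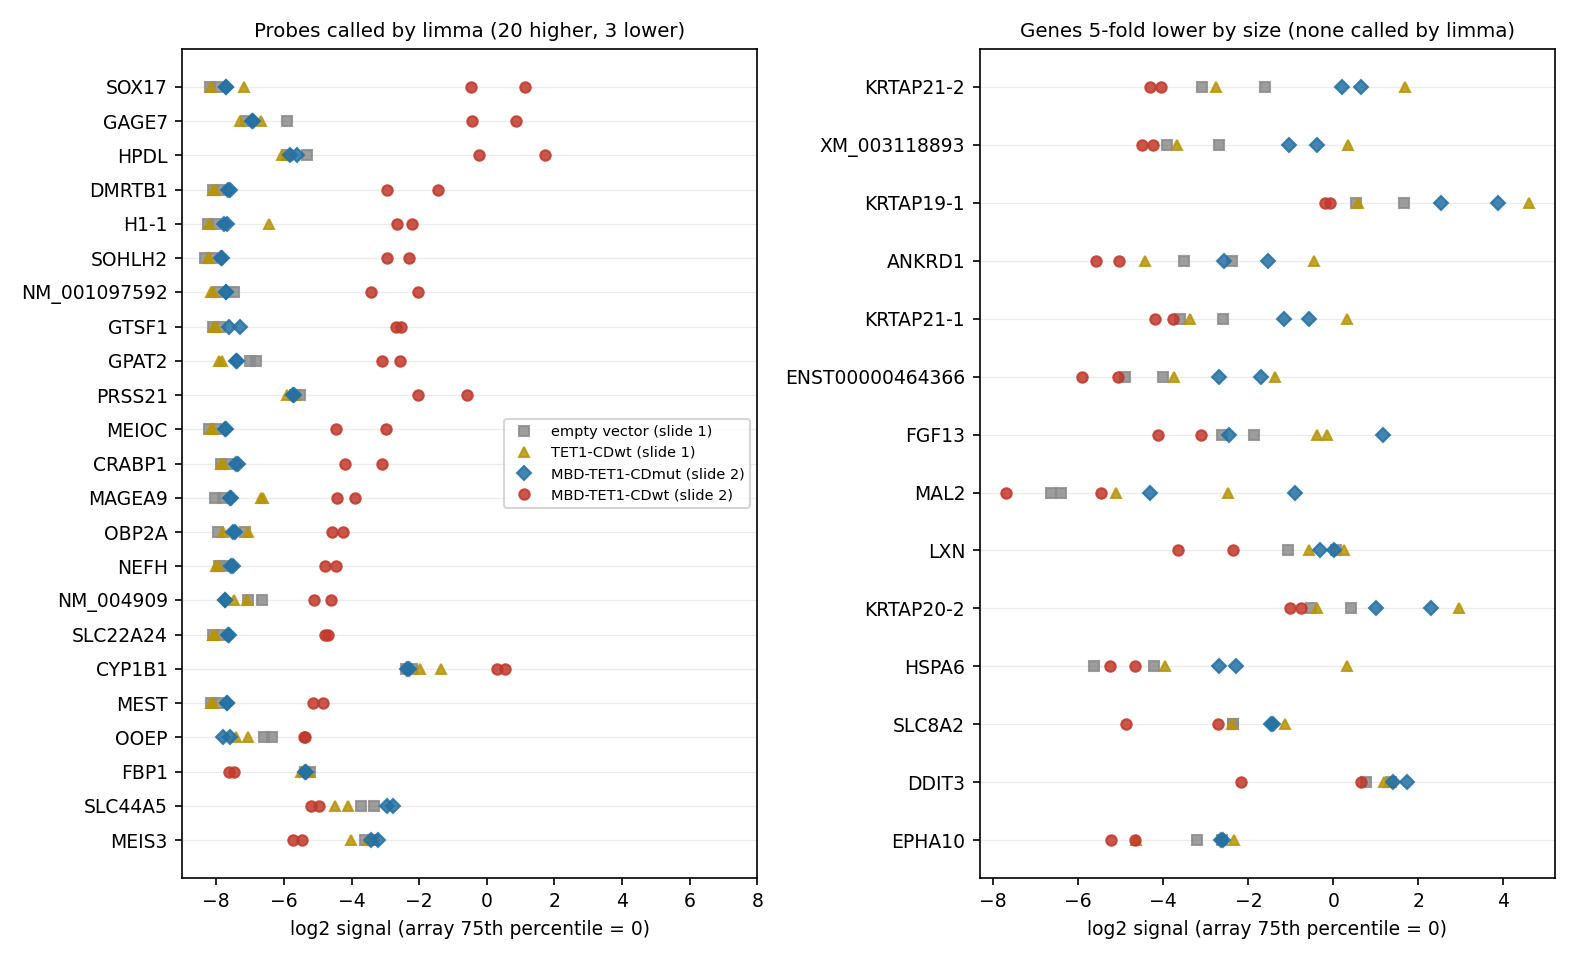
Log2 signal (array's 75th percentile at 0) on all 8 arrays for the 23 probes that passed limma's test (left) and for the 14 genes at least 5-fold lower with MBD-TET1-CDwt (right), 1 marker per array. On the left the MBD-TET1-CDwt markers stand apart from the other 6, while on the right the inactive clones and TET1-CDwt #5 often sit above the empty vector arrays.

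The promoters of SOHLH2, GTSF1 and GPAT2 are shown because these 3 genes passed the test in 16 of 17 other fits, more than any other called gene, and those of FBP1 and KRTAP21-2 because they fell or had the largest fold lower. Each window runs from 250 bases before to 50 after the RefSeq start site (GRCh38.p14), is printed 5′ to 3′ on the gene's strand, and has every CG, the motif that cytosine methylation uses and that reads the same on both strands, in capitals.
SOHLH2: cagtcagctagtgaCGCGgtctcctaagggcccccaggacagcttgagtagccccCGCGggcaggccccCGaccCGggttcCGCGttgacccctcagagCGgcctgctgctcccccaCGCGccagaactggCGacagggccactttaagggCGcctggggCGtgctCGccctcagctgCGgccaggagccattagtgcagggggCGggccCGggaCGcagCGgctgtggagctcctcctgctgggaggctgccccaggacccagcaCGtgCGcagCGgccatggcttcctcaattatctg
GTSF1: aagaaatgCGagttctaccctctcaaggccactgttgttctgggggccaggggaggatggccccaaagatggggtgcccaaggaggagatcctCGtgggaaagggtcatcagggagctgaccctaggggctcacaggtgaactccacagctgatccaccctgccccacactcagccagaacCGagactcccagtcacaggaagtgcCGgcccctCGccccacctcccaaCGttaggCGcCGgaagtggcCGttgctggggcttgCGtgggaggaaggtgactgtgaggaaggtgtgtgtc
GPAT2: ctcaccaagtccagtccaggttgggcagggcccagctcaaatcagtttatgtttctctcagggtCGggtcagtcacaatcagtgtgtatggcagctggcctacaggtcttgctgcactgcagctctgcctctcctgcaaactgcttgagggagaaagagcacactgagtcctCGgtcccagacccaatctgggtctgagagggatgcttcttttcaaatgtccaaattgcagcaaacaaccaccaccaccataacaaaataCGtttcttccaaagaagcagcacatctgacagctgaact
FBP1: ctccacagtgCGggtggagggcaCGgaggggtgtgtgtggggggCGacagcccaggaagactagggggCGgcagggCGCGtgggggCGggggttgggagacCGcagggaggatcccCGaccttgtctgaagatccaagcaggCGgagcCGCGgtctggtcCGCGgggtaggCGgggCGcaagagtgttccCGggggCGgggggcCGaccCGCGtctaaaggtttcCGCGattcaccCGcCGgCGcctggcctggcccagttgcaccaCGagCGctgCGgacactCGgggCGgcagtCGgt
KRTAP21-2: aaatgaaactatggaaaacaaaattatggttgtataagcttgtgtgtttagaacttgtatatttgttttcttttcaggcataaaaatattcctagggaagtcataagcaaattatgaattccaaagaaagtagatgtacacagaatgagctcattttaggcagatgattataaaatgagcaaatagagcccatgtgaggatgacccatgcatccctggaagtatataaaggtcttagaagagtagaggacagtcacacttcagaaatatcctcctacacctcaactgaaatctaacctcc
The SOHLH2 window (chr13:36214507-36214806, minus strand) held 23 CG, the GTSF1 window (chr12:54473553-54473852, minus strand) 10 and the GPAT2 window (chr2:96036216-96036515, minus strand) 3. The FBP1 window (chr9:94639469-94639768, minus strand) held 32, and the KRTAP21-2 window (chr21:30747210-30747509, minus strand) none. Of 15153 gene windows on the array, 98.2% held at least 1 CG and the median was 22, and 49.8% held at least as many as SOHLH2 and 90.5% at least as many as GPAT2. The risers whose calls held in most fits thus ranged from a window at the median to one near the low end. Only 27 of the 49 genes that were 5-fold higher had a window (55.1%), fewer than the 80% needed, so a summary of CpG content over these genes is void.

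By size, at the 5-fold threshold the study used, 49 of 27739 genes (0.177%) were higher with the active fusion and 14 (0.0505%) were lower. At 2-fold the counts were 281 (1.01%) and 232 (0.836%), close to even. Of the 49, each taken at its probe with the largest ratio, 11 passed limma's test and 47 had an unadjusted p under 0.05. NEFH passed the test through its other probe only. Both arrays of the active fusion lay above the other 6 arrays in 46 of the 49, against 4.95% of all tested probes. The choice of genes by a high ratio favours this. In these 49 genes the inactive fusion lay near the empty vector: the median difference was 0.06 (log2), and in 42 of the genes it was under 1. Low inactive values were part of the choice of the 49, and the empty vector lay on the other slide.

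Several of the largest ratios by size did not pass the test. The active clones lay 2.80 (log2) apart in KRT19 but 1.51 in EFS, against 1.93 in HPDL, which passed. KRT19, a keratin of simple epithelia, read -0.27 in #3 and 2.53 in #10 against -5.46 and -4.65, 72.5-fold higher at an adjusted p of 0.0854 (limma). TCF15, a helix-loop-helix factor of somites, read -0.76 and 1.35 against -4.90 and -4.30, 29.8-fold higher (adjusted p = 0.0795 by limma). RIOX1, a ribosomal oxygenase, was 16.1-fold higher and EFS, an adaptor of the CAS family, at least 14.6-fold. OPLAH, the 5-oxoprolinase of the glutathione cycle, read -2.05 and 0.90 against -4.88 and -6.09, at least 24.7-fold higher with 1 inactive array dim. In all 5 genes clone #10 was the higher of the active clones and neither active clone overlapped an inactive one. HSPA1A, the stress-inducible HSP70, read 1.03 and -0.95 against -4.80 and -5.10, 31.8-fold higher, but the TET1-CDwt #5 array read -2.78 and the other arrays of slide 1 between -7.84 and -6.78 (adjusted p = 0.508 by limma). Its sequence is nearly shared with HSPA1B, which the probe may not tell apart.

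Clone #10 gave the higher value in 39 of the 49 genes, with a median difference from clone #3 of 1.86 (log2). Clone #3 alone was 5-fold above the mean of the inactive clones in 30 of the 49 and clone #10 in 47, with 2-fold reached in 47 and 49. These counts used measured signals, which lay below background where an inactive array was dim. The counts below with a clone left out took such values no lower than the dimmest detected signal. The median SD between the active clones was 1.36 in these genes and that between the inactive clones 0.166. Leaving out clone #3, 134 genes were 5-fold higher, of which 46 were among the 49, and leaving out clone #10 there were 36, of which 25 were among them. TMEM88 shows the spread at its widest: it read -3.25 in #3 and 2.14 in #10 against -3.61 and -3.77, so that clone #10 alone carried its 8.78-fold ratio. GPC3, a glypican, read 0.24 and 3.48 against -0.83 and -0.69.

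**Figure D3:**
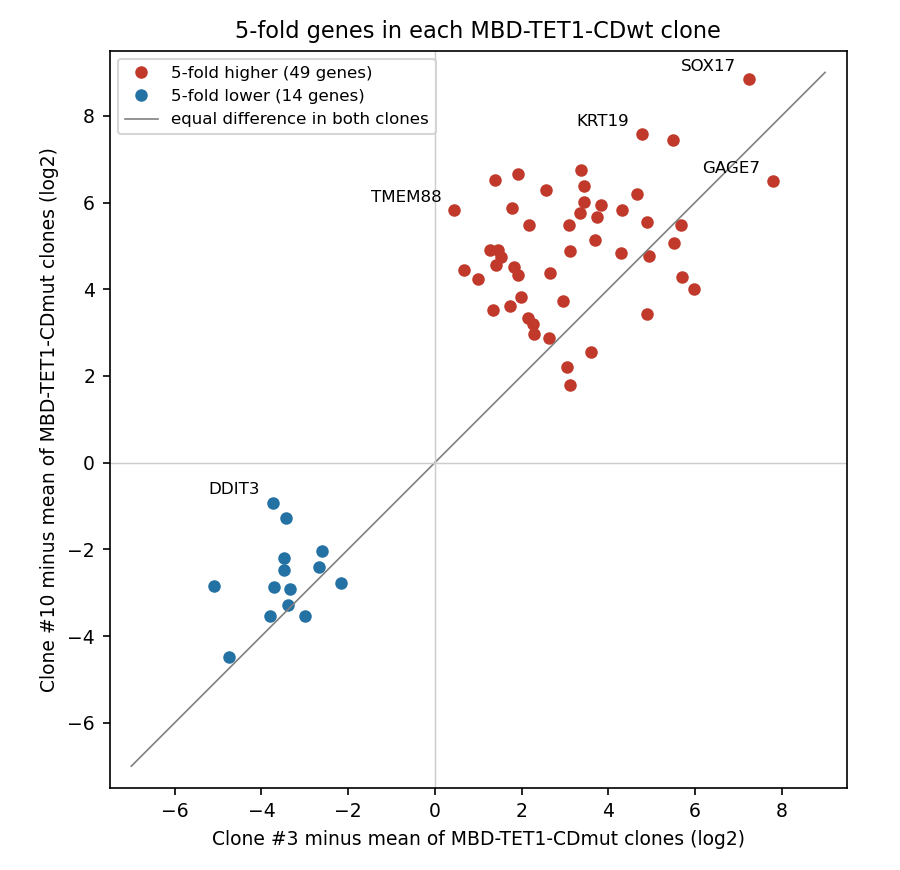
Difference of each MBD-TET1-CDwt clone from the mean of the MBD-TET1-CDmut clones (log2, measured signals), with clone #3 on the x axis and clone #10 on the y axis, for genes 5-fold higher or lower. Most of the 49 higher genes lie above the diagonal, where clone #10 changed more.

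Other genes past 5-fold spanned several roles. DUSP23, a phosphatase, read -1.04 in #3 and 1.36 in #10 against -4.02 and -4.77, 23.6-fold higher. SLC16A3, a lactate transporter, read -2.52 and 0.72 against -4.45 and -3.63, but TET1-CDwt #2 read -1.65, above active clone #3. ICAM2, an adhesion molecule, read -1.94 and -1.27 against -3.62 and -4.84, with TET1-CDwt #2 the highest of all arrays at 0.40. These were 2 of the 3 genes among the 49 in which another array exceeded an active clone. TPM2, a tropomyosin, read 1.35 and 3.21 against -0.27 and -0.52, 6.38-fold higher. COL2A1, the cartilage collagen, read -4.29 and -1.73 against -7.74 and -7.75, at least 5.72-fold higher. BEX1, an X-linked brain-expressed gene, read -2.55 and -3.39 against -5.38 and -5.81, at least 5.59-fold higher and one of the few that were brighter in clone #3. DDX43, a helicase of the cancer-testis class, was at least 5.74-fold higher, GSTT2, a glutathione transferase, at least 5.88-fold, and ESRP2, an epithelial splicing regulator, 5.39-fold.

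The 14 genes that were 5-fold lower passed no adjusted test (0 called by limma, 13 with an unadjusted p under 0.05). The inactive fusion itself lay above the empty vector by a median of 1.90 in these genes, and only 5 of the 14 lay within 1. The 14 were chosen for inactive values above the active ones, which favours such a median. The empty vector also lay on the other slide. The active fusion was below the empty vector by a median of 1.30. Its arrays were below the other 6 in 12 of the 14, against 5.54% of all tested probes, and the choice of genes favours this too. KRTAP21-2, a hair keratin-associated protein, read -4.32 and -4.06 with the active fusion against 0.66 and 0.20 with the inactive one, 24.6-fold lower. The empty vector arrays read -1.60 and -3.10, and the TET1-CDwt arrays -2.75 in #2 and 1.68 in #5. KRTAP19-1, KRTAP21-1 and KRTAP20-2, of the same family and also on chromosome 21, were 10.1-fold, 8.73-fold and 5.82-fold lower with the same high TET1-CDwt #5 array. RefSeq named 12 of the 14 genes, and among these the 4 were the only ones on chromosome 21. The rest had no chromosome assigned. Without active clone #10 the count of lower genes was 59, and without inactive clone #10 it was 28.

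ANKRD1, a target of YAP, was at least 9.40-fold lower, with 1 active array dim, and LXN, a carboxypeptidase inhibitor, 7.19-fold lower. LXN read -3.64 and -2.36 against 0.01 and -0.32, with the slide 1 arrays between -1.07 and 0.25. FGF13, an intracellular fibroblast growth factor, read -4.12 and -3.11 against 1.17 in #9 and -2.45 in #10, so that the inactive clones differed by more than the active ones. DDIT3, the stress factor CHOP, read -2.18 in #3 but 0.64 in #10 against 1.39 and 1.73, and its 5.03-fold ratio came mostly from clone #3. MAL2, a proteolipid of transcytosis, read -7.70 and -5.47, dim on both active arrays, against -0.91 in #9 and -4.32 in #10, at least 7.47-fold lower. The empty vector arrays read -6.65 and -6.41 for MAL2, so its mean with the active fusion was near theirs and with the inactive one 3.91 above. HSPA6, an inducible HSP70, was 5.55-fold lower with the active fusion, and the TET1-CDwt #5 array, at 0.31, was its highest. Its mean differed from that of the empty vector by -0.04 with the active fusion and 2.43 with the inactive one. SLC8A2, a sodium-calcium exchanger, and EPHA10, an ephrin receptor, were 5.12-fold and 5.0-fold lower.

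Genes with a low start level made up most of those that were higher. Of 648 tested probes dim on both inactive arrays, 21 were 5-fold higher and 70 were 2-fold higher, and the median difference was 0.35, but a dim probe of this kind entered the test only through another group and had no room to be lower. Of 8019 probes above background but under -2, 26 were 5-fold higher and 5 were 5-fold lower, with a median of -0.02. Of 8520 probes at 0 or over, 2 were 5-fold higher and 4 were lower. Probes dim on both inactive arrays and detected on both active arrays numbered 178, and the reverse held for 143. Among genes that RefSeq placed on a chromosome, X held 9 of the 49 higher genes, 1.19% of its 757 genes. It held 30 of the genes that were 2-fold higher (3.96%, against 1.01% over all genes, placed or not). GAGE7, of an X-linked family, was not placed and is not among the 9. Cancer-testis genes such as MAGEA2B, MAGEA6 and CTAG1A are among the 9, so this count overlaps with that list.

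The cancer-testis list held 43 genes on the array, of which 12 were 2-fold higher (27.9%, against 1.01% of all genes), 8 of these 5-fold (18.6%, against 0.177%), and none was 2-fold lower. Both active arrays were above the other 6 in all 12, against 4.95% of all tested probes, but the choice of genes 2-fold higher favours this. CTAG1A (NY-ESO-1) read 0.54 and -0.94 against -4.0 and -4.72, 17.9-fold higher (adjusted p = 0.160 by limma). VCX2 read 0.71 and -0.35 against -2.63 and -3.16, 8.41-fold higher. CT45A5 read -4.32 in #3 and 0.81 in #10 against -5.12 and -6.31, at least 11.8-fold higher with 1 inactive array dim, and MAGEA6 was 19.6-fold higher with -3.0 and 1.75. No clone was uniformly higher, since CTAG1A and VCX2 were higher in #3 while CT45A5 and MAGEA6 were higher in #10. The median over all 53 probes was 0.19, against 0.02 over all probes. At least 1 probe was dim on all 4 fusion arrays for 22 of the 43 genes. A probe above background on all 4 was found for 11.

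The germ cell and piRNA list held 69 genes, of which 8 were 2-fold higher (11.6%, against 1.01% of all genes), 3 of these 5-fold (4.35%, against 0.177%), and none was 2-fold lower. Besides SOHLH2 and GPAT2, MEIOB, which binds single-stranded DNA in meiosis, read -3.71 and -0.42 against -5.86 and -5.93, at least 11.1-fold higher. TDRD9, a helicase of the piRNA pathway, read -4.84 and -3.28 against -7.79 and -7.76, at least 2.77-fold higher (adjusted p = 0.0696 by limma). TEX14, of the germ cell bridge, was at least 3.04-fold higher, but the TET1-CDwt #5 array read -3.21, above both active arrays. PIWIL4 was 2.27-fold higher. The list's median was 0.26 over 90 probes. At least 1 probe was dim on all 4 fusion arrays for 37 of the genes, SOHLH2 and GPAT2 among them. A probe above background on all 4 was found for 22.

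**Figure D4:**
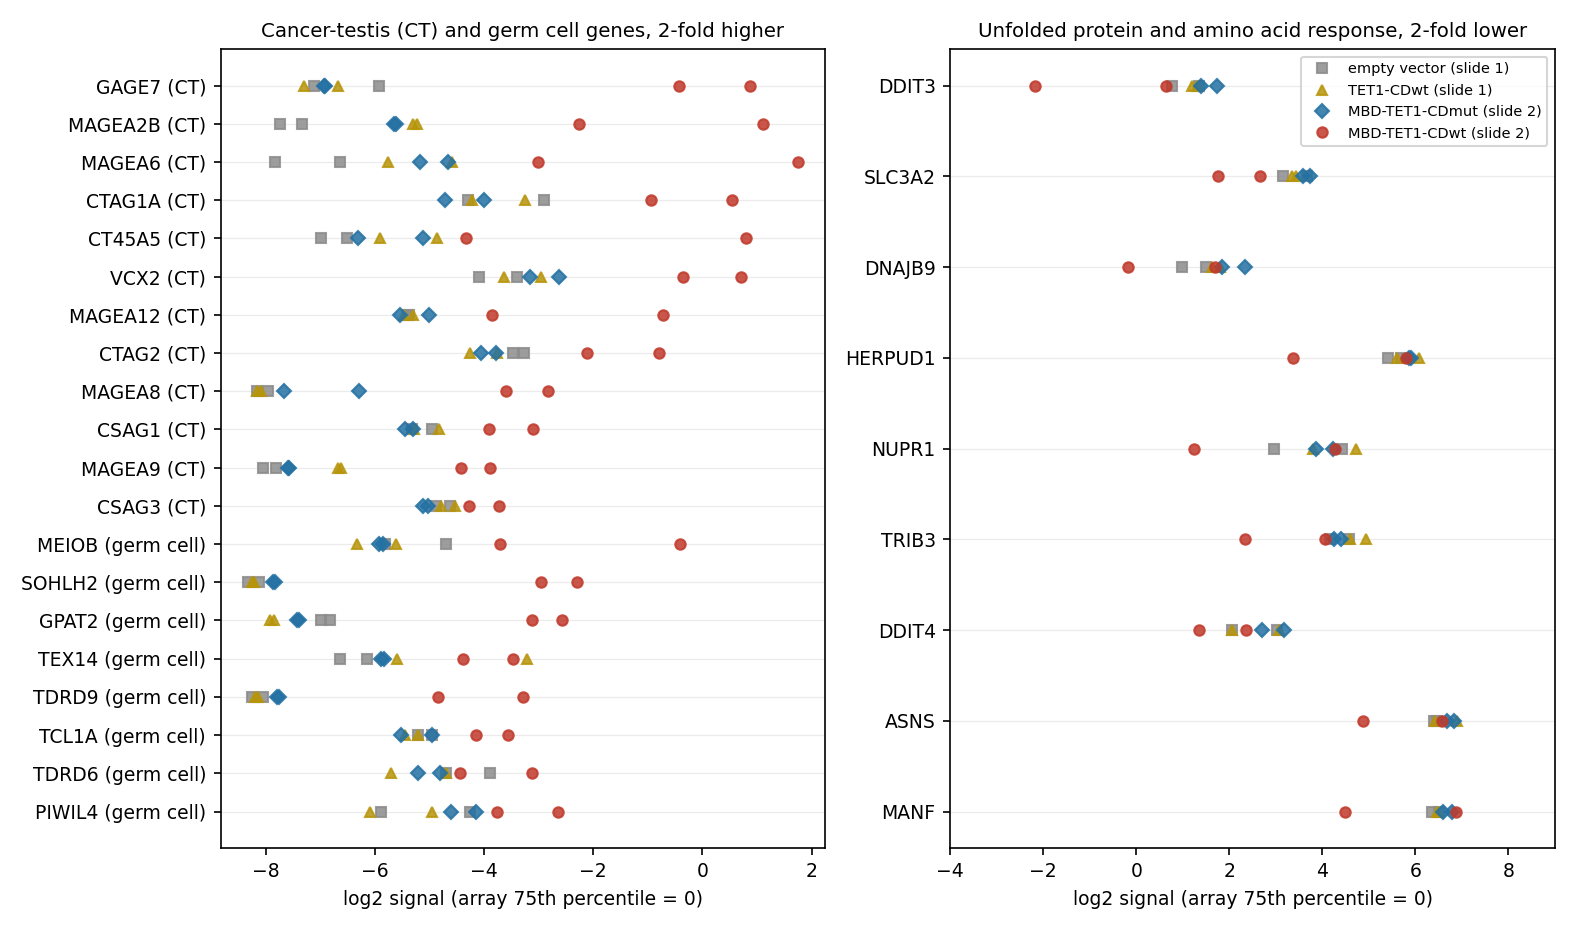
Log2 signal (array's 75th percentile at 0) on the 8 arrays for the 12 cancer-testis (CT) and 8 germ cell genes that were 2-fold higher with MBD-TET1-CDwt (left) and for the 9 genes of the unfolded protein and amino acid response that were 2-fold lower (right). The MBD-TET1-CDwt markers sit right of the others in most genes on the left, and 1 MBD-TET1-CDwt clone, #3, sits far to the left in most genes on the right.

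The unfolded protein and amino acid response list was lower mainly in clone #3. Of its 29 genes, 9 were 2-fold lower (31.0%, against 0.836% of all genes), 1 of these 5-fold, and none was 2-fold higher. No member passed limma's test. HERPUD1, of the degradation of misfolded proteins, read 3.36 in #3 and 5.79 in #10 against 5.86 and 5.90 in the inactive clones, a difference of -1.30. MANF, a secreted stress protein, read 4.48 and 6.89 against 6.59 and 6.79, and ASNS, asparagine synthetase, 4.88 and 6.57 against 6.67 and 6.84. SLC3A2, a subunit of amino acid transporters, was lower in both clones, at 1.75 and 2.66 against 3.59 and 3.74. The list's median was -0.39, but it was -0.84 for clone #3 and -0.08 for clone #10. Without clone #3 only 2 of the genes stayed 2-fold lower.

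Genes often methylated in cancer gave 5 of 61 that were 2-fold higher (8.2%, against 1.01% of all genes), of which CYP1B1 and CRABP1 passed limma's test, and 2 that were lower (3.28%, against 0.836%). APC2, a relative of the APC tumour suppressor, led the higher ones at 9.0-fold with -0.25 and 2.45 against -1.87 and -2.28. The lower ones were RPRM, at least 4.84-fold, and RASSF2, 2.02-fold. RPRM read -6.15 in #3 but -1.90 in #10 against -1.10 and -1.81. Of the homeobox genes outside the HOX clusters, 6 of 97 were 2-fold higher (6.19%), including BARX1 at -1.66 and 1.05 against -2.27 and -2.25. The 2 lower ones (2.06%) were PAX7, 3.98-fold, and IRX4, 2.72-fold. Clone #3 was the lower active clone in both, and IRX4 in clone #10 lay above both inactive clones. Of imprinted genes, 3 of 41 were 2-fold higher (7.32%) and 1 lower (2.44%), and of interferon-stimulated genes 2 of 65, IRF7 and IFIT1, were higher (3.08%). The DNA methylation and demethylation machinery had 1 of 36 higher (2.78%) and MHC class I antigen presentation 1 of 25 lower (4.0%), while none of 11 metallothioneins or 364 olfactory receptors reached 2-fold. The lists were not tested, and where a list holds few genes 1 gene makes a large share. The mitosis list had a median of 0.30 in clone #3 and -0.38 in clone #10, and the histone list 0.35 and -0.19, so both had opposite signs in the 2 clones, and H1-1 was the only gene of either past 5-fold. Among 82 keratin-associated protein genes, a list added after their values were seen, 4 were 5-fold lower (4.88%, against 0.0505%) and 5 were 2-fold lower (6.1%, against 0.836%), with a median of 0.03. Of 30 lists, 17 held no gene past 5-fold and 23 no gene called by limma.

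**Figure D5:**
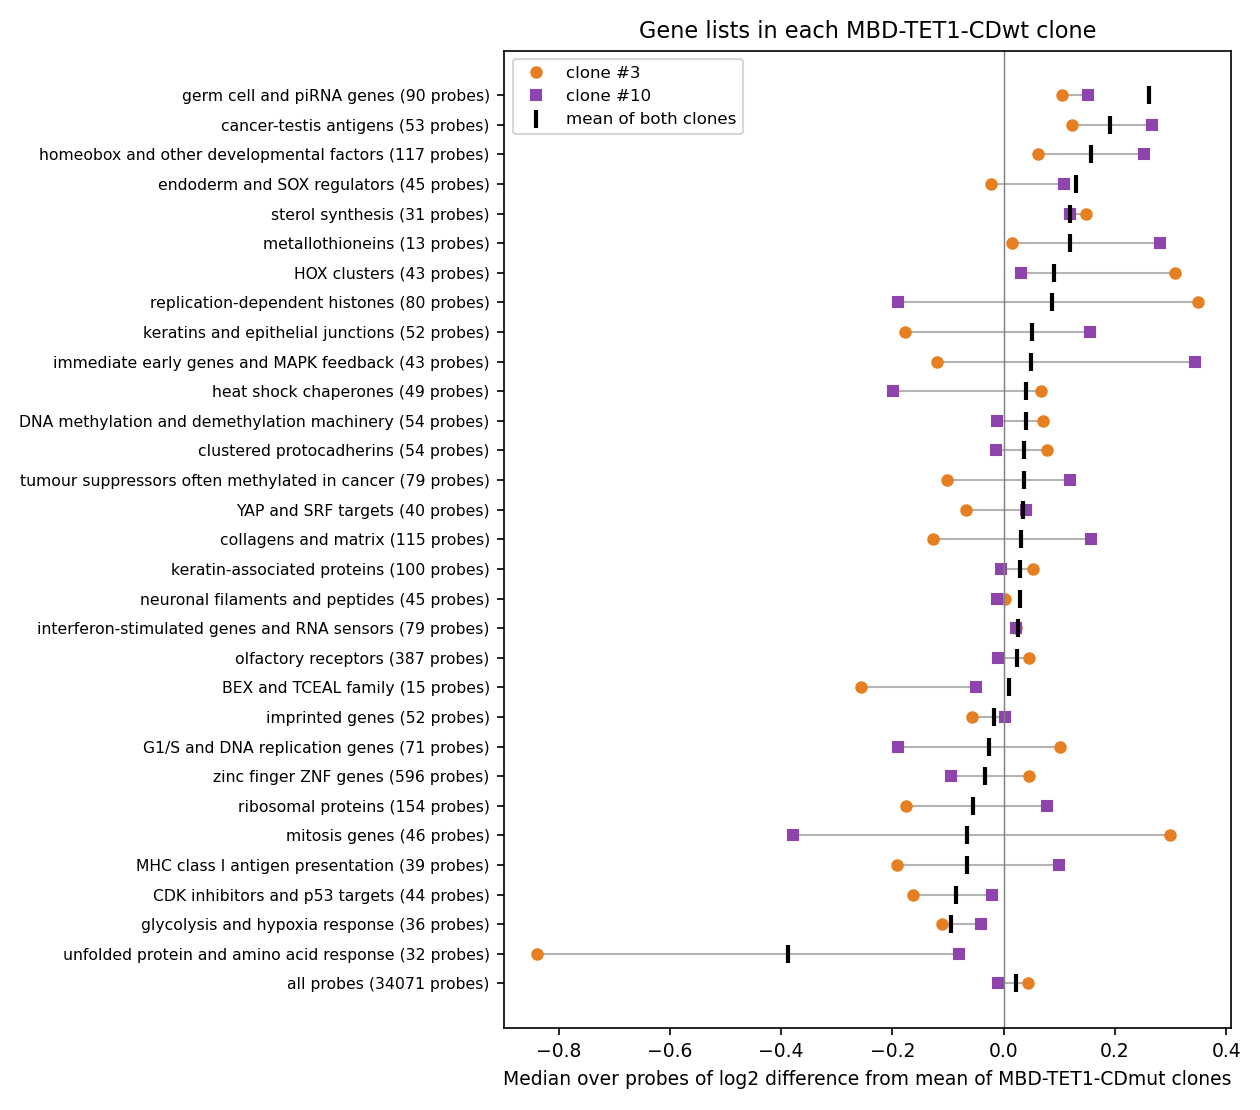
Median difference from the MBD-TET1-CDmut clones (log2) of each gene list, for MBD-TET1-CDwt clone #3 and clone #10 separately, over all probes of the list. The unfolded protein and amino acid response list is lowest for clone #3 at -0.84, and the mitosis and histone lists lie on opposite sides of 0 in the 2 clones.

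The change between the active and the inactive fusion was set against the change between the untargeted TET1-CDwt and the empty vector, each within its own slide. It was more positive for 10 of 22530 probes (0.0444%) and more negative for 0 by limma, with 494 and 347 at an unadjusted p under 0.05. Of the 20 genes called higher, 9 were among the 10. In the tenth, ST8SIA1, the fusions differed by only 0.27 and TET1-CDwt lay 3.65 below the empty vector (-3.65). Leaving out 1 clone moved the 10 to between 0 (without either inactive clone, either empty vector clone or TET1-CDwt #2) and 35 (without active clone #3), with 3 without TET1-CDwt #5 and 21 without active clone #10. The untargeted pair had the empty vector and not an inactive domain as its control, so the 2 changes differ in their control as well as in the targeting domain.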

How the data were processed

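HEK293T RNA from 8 stable clones was hybridised to one-colour Agilent 4x44K v2 arrays. The authors deposited scanner files, whose background-corrected intensity values (gProcessedSignal) Feature Extraction 10.7.3.1 wrote per the file headers (version 9.5.1 in the submitters' processing notes). Spots were averaged per probe in log2, outlier spots were left out, and the 75th percentile of each array was subtracted. Of 34127 probes, 56 had every spot flagged on some array and were dropped, and 25422 (74.5%) were named by RefSeq. limma 3.58.1 in R 4.3.3 fitted 4 group means to 8 arrays (4 residual degrees of freedom) for the 22530 probes detected in both clones of any group (Benjamini-Hochberg adjustment) and was tested on simulated data. A 5-fold ratio is the threshold of the study's methods, which name no test. For folds, a dim probe was set to the array's lowest detected signal where its own was lower. Genes called by limma, the 15 largest 5-fold differences in each direction and up to 6 members of each list were named, with genes fixed by the study's assays. Members and lists were chosen with earlier results of these data known. The normexp alternative (offset 50) used median spot signals. Array number limits precision. Promoters were 300-base RefSeq windows.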

Additional observations from a re-analysis of the deposited data

Results flagged for a closer look

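For 10 probes the change from the inactive to the active fusion differed from the change from the empty vector to TET1-CDwt by the test of the difference itself (limma, adjusted p under 0.05, each change within 1 slide). All 10 were dim on both inactive arrays, so these differences, computed on the measured signals, are not bounds and depend on signal below background. On the log2 scale they were 4.89 (SE 0.27, adjusted p = 0.00558) for GTSF1, 5.53 (SE 0.31, adjusted p = 0.00558) for GPAT2, 5.23 (SE 0.34, adjusted p = 0.0106) for SOHLH2, 2.97 for SLC22A24, 3.02 for NEFH, 7.62 for SOX17, 2.77 for MEST, 3.08 for OOEP and 7.62 for GAGE7. The bounds of the change between the fusions were at least 7.58-fold for GTSF1, 6.43-fold for GPAT2, 7.52-fold for SOHLH2, 1.73-fold for SLC22A24, 1.87-fold for NEFH, 58.0-fold for SOX17, 1.45-fold for MEST, 1.10-fold for OOEP and 53.8-fold for GAGE7. In these 9 the mean of TET1-CDwt lay within 1 of the mean of the empty vector (log2). The tenth was 3.92 (SE 0.38, adjusted p = 0.0471) for ST8SIA1, a ganglioside synthesis enzyme, and it came from the other side: the fusions differed by 0.27, while TET1-CDwt read -7.89 and -7.94 against -3.90 and -4.64 with the empty vector. The probe was dim on all 4 fusion arrays. The part of slide and of control in these differences was not tested.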

How the results depend on the processing

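No paired analysis was possible because the 2 fusions were carried by separate clones, with none in common. The cause of the shifts below was not tested. Calls by limma, 20 higher and 3 lower, became 2 and 0 with normexp, 9 higher without the filter, 0 and 0 among probes well above background on all 4 arrays (593 and 688 unadjusted), 4 and 1 on the slide 2 arrays alone, 10 and 0 with a trended prior, and 1 lower with array weights. Leaving out 1 clone gave 3 to 68 higher (3 without either inactive clone, 10 without either empty vector clone, 42 without active clone #10, 68 without #3) and 0 to 101 lower (101 without #10, 7 without #3). The difference of effects, 10 higher and 0 lower, gave 1, 3, 2, 0, 0, 5, 16 and 6 higher with normexp, median scaling, no filter, the 4-array filter, a trended prior, a robust prior, array weights and probes averaged per gene, 1 lower with quantile normalisation, and 0 to 35 higher and 0 to 4 lower by clone. By size, 49 higher and 14 lower became 11 and 2 with normexp, 85 and 31 without the floor, 21 and 6 where every clone had to pass, 281 and 232 at 2-fold, and 36 to 134 and 12 to 59 without 1 clone (59 without active #10, 28 without inactive #10). The 8 germ cell genes became 2 with normexp and 7 to 14 by clone, and the 9 unfolded protein response genes 2 to 12. Of 161 alternatives for called genes, 94 kept the call and 67 lost it, and none reversed. GTSF1, GPAT2 and SOHLH2 were called in 16 of 17 other fits, SLC44A5 in 5 and OBP2A in 3. CpG content over called genes was not run because too few had windows.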

Other observations

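Small Cajal body and nucleolar RNAs were grouped after their values were seen and were not tested as a group. Of 24 genes measured by 25 probes, 9 were 2-fold higher with the active fusion (37.5%, against 1.01% of all genes) and none lower, and none passed limma's test. SCARNA13 read 2.89 in #3 but -1.54 in #10 of MBD-TET1-CDwt against -1.32 and -1.73, and SCARNA1 -0.52 and -4.54 against -4.85 and -4.80. SNORA74A was more even, at -2.70 and -3.12 against -4.49 and -4.74. The group's median was 0.61, with 0.89 for clone #3 and 0.29 for clone #10, and the inactive fusion was itself 0.32 below the empty vector (-0.32).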
